A study of Xenopus laevis with 24 samples.

Results

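Integrins, laminins, fibronectin and other matrix glycoproteins were followed in *Xenopus laevis* explants as 79 gene models of 31694 in the count table. They were chosen by name alone, as every model whose gene name begins with the symbol of an integrin subunit, a laminin chain, fibronectin, a fibrillin, sparc, a thrombospondin, tenascin C, a nidogen, a hyaluronan synthase, a hyaluronan-binding proteoglycan or link protein, a syndecan or a glypican. The rule itself used no measured value, but it was chosen with earlier results of these data known. It took 16 integrin alpha and 10 integrin beta models, 9 laminin chains, 9 matricellular models (sparc, thrombospondins and tenascin), 7 syndecans, 6 glypicans, 6 fibrillins, 5 hyaluronan synthases, 4 hyaluronan-binding models, 4 nidogens and 1 fibronectin. It also took 2 models that share only the start of the name: itgb1bp2.L, melusin, a muscle protein that binds the integrin beta 1 tail, and itgb3bp.L, a centromere protein. *X. laevis* is allotetraploid, and the suffixes L and S mark the copies (homeologs) from its subgenomes. Of the 79 models, 50 carry L, 28 carry S and thbs4 carries neither. The name has2.L belongs to 2 models, gene39058 and gene7237.

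RNA was sequenced from dorsal marginal zone (DMZ) explants of the Keller type, the dorsal equatorial tissue of the gastrula that holds the Spemann organizer and extends by convergent extension in culture. The DMZ explants were cut at stage 10.5 and 5 or 6 of them were collected at each of 10 stages of sibling embryos, from 11 to 13 by steps of 0.5 and from 14 to 18 by steps of 1. At stage 11 there were also 5 ventral marginal zones (VMZ), cut at stage 10.5, and 20 animal caps, which are prospective ectoderm, cut at stage 8. Eggs had been kept at 16 °C, the labels name no genotype, strain or treatment, and each of the 12 groups has 2 libraries. Each library pools several explants, and the labels do not say whether the 2 came from separate clutches, so p-values reflect no more than the variation among libraries.

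Cells hold the matrix through integrins, receptors made of 1 alpha and 1 beta subunit that link matrix outside the cell to actin inside it. Integrin alpha 5 with beta 1 binds fibronectin, while alpha 3, alpha 6 and alpha 7 with beta 1, and alpha 6 with beta 4, bind laminins. Laminins are trimers of an alpha, a beta and a gamma chain and form basement membranes together with nidogens, fibrillins form microfibrils, and hyaluronan is a polysaccharide made at the cell surface. Syndecans and glypicans are cell-surface proteoglycans that bind growth factors. In *Xenopus* gastrulae, fibronectin and its integrin receptors take part in convergent extension, and fibrillin is laid down along the boundary between notochord and somites.

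DMZ stage 11 replicate 2 was the shallowest library, with 7.38 M counts, DMZ stage 17 replicate 1 had 14.6 M, and the remaining libraries had 21.9 to 39.8 M. The 79 models held between 0.594% and 0.853% of the counts, and all 79 passed the filter on low counts. Levels are CPM, counts scaled to the size of the library after TMM normalization. CPM is not divided by transcript length, so levels are compared within a gene model and not between models. The tissue labels were compared with markers: dorsal organizer genes (8 symbols, 14 models) summed to 1076 and 1698 CPM in the DMZ at stage 11, 173 and 133 in the VMZ and 53.8 and 88.2 in the cap. For wnt8a.L, a ventrolateral mesoderm gene, the means were 74.0 CPM in the VMZ, 1.16 in the DMZ and 0.81 in the cap. With the 6 models of wnt8a, szl and bambi summed (3 of 7 listed symbols found), the ventral list was nevertheless highest in the cap, at 910.4 and 859.9 against 596 and 349.6 in the VMZ. In such bulk samples, fewer cells of a type and less RNA per cell cannot be told apart.

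Many matrix genes rose between stage 11 and stage 18, among them laminin chains, fibrillin 3, sparc and thrombospondins, while fibronectin and most integrin subunits were not called. In DMZ explants 24 of the 79 models were higher at stage 18 than at stage 11 and 9 were lower (edgeR quasi-likelihood test, called at an adjusted p under 0.05 over 31349 tested models). The background was 20.9% called higher and 19.6% called lower among all tested models, against 30.4% and 11.4% of the members. In either direction 41.8% of the members were called, with a background of 40.4%. The median log2 fold change was 0.39 over the members and 0.02 over all tested models. The risers were 6 of 9 matricellular models, 4 of 9 laminin chains, 3 of 4 hyaluronan-binding models, 2 of 6 fibrillins, 2 of 7 syndecans, 3 of 16 integrin alpha subunits and 1 each among nidogens, hyaluronan synthases, integrin beta subunits and the models that only share a name. The models that fell were 3 of 10 integrin beta subunits, 2 of 6 glypicans, 2 of 5 hyaluronan synthases, 1 nidogen and 1 syndecan. Whether these classes differ from each other was not tested. Of the 33 calls, 25 stayed when any one of the 4 libraries was left out. With the replicate number as a block, the models called lower went from 9 to 16 (background 24.8%).

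**Figure D1:**
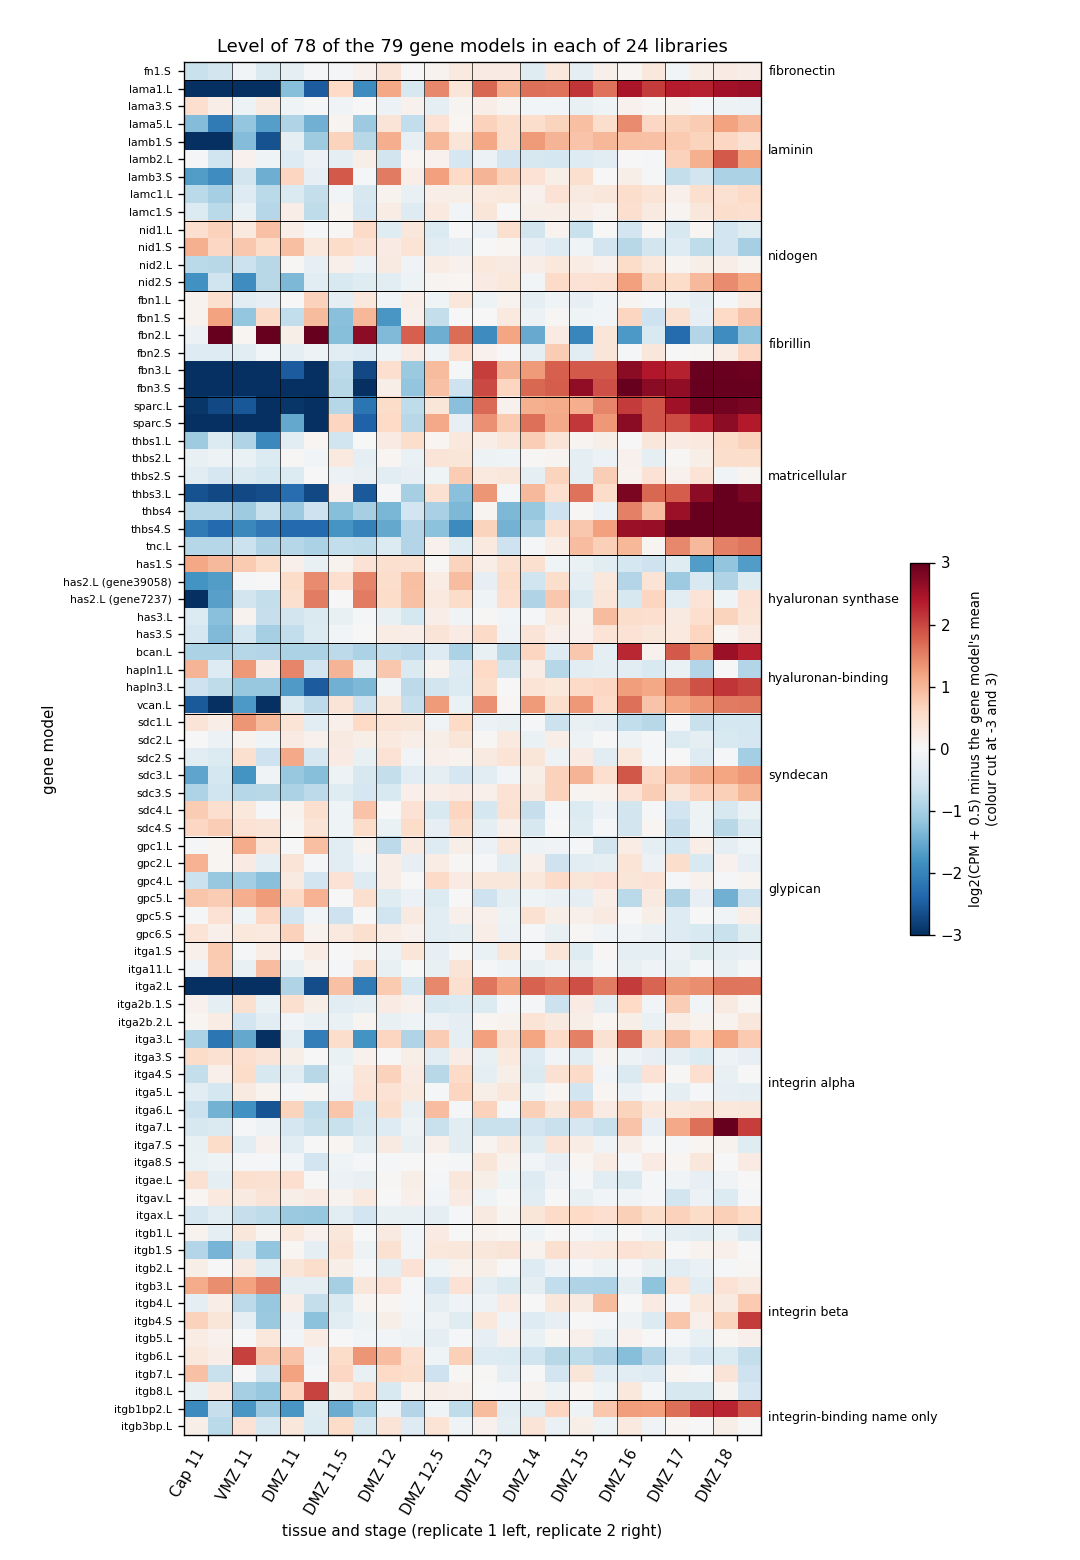
Heat map of 78 of the 79 gene models (rows, grouped by class) in the 24 libraries (columns, replicate 1 left of replicate 2 within each tissue and stage). Colour is log2(CPM + 0.5) minus the mean of the model over all libraries. Most matricellular rows and the fibrillin 3 and lama1.L rows turn from blue to red along the DMZ stages. The fn1.S row and most integrin rows stay pale, and fbn2.L is red in the replicate 2 libraries of the early stages.

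Fibronectin itself was measured by 1 model, fn1.S, and stayed within a narrow range. In the DMZ it was 1031 and 1202 CPM at stage 11, 969.6 and 1557 at stage 14 and 1486 and 1439 at stage 18. The stage 18 libraries were both above the stage 11 libraries, but the difference was not called (log2 fold change 0.39 ± 0.21 SE, adjusted p = 0.15), and the adjusted p for any change over the 10 stages was 0.757. The subunits of its receptor were as even or slightly lower. The alpha 5 subunit itga5.L had 74.8 and 78.1 CPM at stage 11 and 64.5 and 63.2 at stage 18, with stage 18 below stage 11 and no call (log2 fold change -0.26 ± 0.23 SE, adjusted p = 0.406). The beta 1 subunit itgb1.L had 311 and 272 CPM at stage 11 and 225 and 185 at stage 18. Both stage 18 libraries lay below both of stage 11 and itgb1.L was called lower (log2 fold change -0.51 ± 0.17 SE, adjusted p = 0.0255), a call that was lost on leaving out a library, with an adjusted p of 0.141 without DMZ stage 11 replicate 1 and 0.197 without DMZ stage 18 replicate 2. Its homeolog itgb1.S, at 262 and 206 and then 278 and 247 CPM, was not called (log2 fold change 0.17 ± 0.24 SE, adjusted p = 0.619). With L and S summed, itgb1 was not called by edgeR (log2 fold change -0.11, adjusted p = 0.66). The alpha V subunit itgav.L, a receptor for fibronectin and vitronectin, had 69.2 and 72.7 CPM at stage 11 and 45.5 and 58.7 at stage 18, which do not overlap. It was not called (log2 fold change -0.44 ± 0.18 SE, adjusted p = 0.0575), but it was called with the block (0.00377), with RLE scaling (0.0475), upper quartile scaling (0.0271) or the stricter filter (0.0429), by DESeq2 (0.0363) and without DMZ stage 18 replicate 2 (0.0396, all adjusted p).

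The laminin chains alpha 1, alpha 5 and gamma 1 were higher at stage 18 than at stage 11 in the models lama1.L, lama5.L and lamc1.L. The alpha 1 chain lama1.L had 34.6 and 14.5 CPM at stage 11, 189 and 59.8 at stage 12, 266 and 262 at stage 14 and 486 and 504 at stage 18. Every library from stage 12 on was above both stage 11 libraries, and the fitted fold, as for all folds given with a log2 fold change, was 19.9 at stage 18 over stage 11 (log2 fold change 4.31 ± 0.84 SE, adjusted p = 0.000871). The alpha 5 chain lama5.L, at 66.4 and 46.1 CPM and then 289 and 249, rose 4.77-fold (log2 fold change 2.25 ± 0.42 SE, adjusted p = 0.000605). The gamma 1 chain shared by both trimers, lamc1.L, rose from 154 and 127 to 288 and 311 CPM, a smaller ratio of 2.13 with little spread (log2 fold change 1.09 ± 0.18 SE, adjusted p = 0.000262). Its homeolog lamc1.S had 106 and 54 CPM at stage 11 and 133 and 130.0 at stage 18. Both stage 18 values are above both of stage 11, but it was not called (adjusted p = 0.0749). It was called with the block (0.00749), without DMZ stage 11 replicate 1 (0.0105) and with L and S summed (0.00135, all adjusted p).

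Of the 3 beta chain models, lamb2.L was called higher at stage 18 than at stage 11. The beta 1 chain lamb1.S was highest at stage 14, with 78.6 and 44.8 CPM at stage 11, 228 and 193 at stage 14 and 145 and 130.4 at stage 18. It was called higher at stage 14 (log2 fold change 1.76 ± 0.52 SE, adjusted p = 0.0213), where the adjusted p on leaving out a library was 0.167 without DMZ stage 11 replicate 2, 0.0835 without DMZ stage 14 replicate 1 and 0.0535 without DMZ stage 14 replicate 2. At stage 18 against stage 11 lamb1.S was not called without the block and was called with it (adjusted p = 0.085 without and 0.0106 with it). The beta 2 chain lamb2.L, known from muscle and nerve basement membranes, stayed low until stage 16 and had 0.319 and 0.296 CPM at stage 14 and 3.56 and 2.08 at stage 18, 9.07-fold higher (log2 fold change 3.18 ± 0.59 SE, adjusted p = 0.00521). That call had an adjusted p of 0.0701 without DMZ stage 14 replicate 2, whereas lamb2.L was called at stage 18 against stage 11 in every leave-out (log2 fold change 2.72 ± 0.61 SE, adjusted p = 0.00227). The beta 3 chain lamb3.S, known from epithelia, peaked at stage 11.5 in replicate 1 and at stage 13 in replicate 2, with 4.04 and 1.92 CPM at stage 11, 9.93 and 2.28 at stage 11.5, 5.38 and 4.19 at stage 13 and 0.991 and 0.987 at stage 18. Both stage 18 libraries are below both of stage 11, but the difference was not called (adjusted p = 0.0542). It was called with the block (0.0128), by DESeq2 (0.0331), with the stricter filter (0.0465) and without DMZ stage 11 replicate 2 (0.0452, all adjusted p). The alpha 3 chain lama3.S, of epithelia, was at or under 0.435 CPM in every library and was not called.

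Of the nidogens, linkers of laminin to collagen IV in basement membranes, 1 of 4 models rose and 1 fell. For nid2.S the levels were 8.71 and 18.6 CPM at stage 11 and 62.7 and 53.3 at stage 18, without overlap, and it rose 4.33-fold (log2 fold change 2.11 ± 0.43 SE, adjusted p = 0.00123). Its homeolog nid2.L, with 325 and 269.7 and then 367 and 337 CPM, was not called (log2 fold change 0.24 ± 0.15 SE, adjusted p = 0.212). With L and S summed, nid2 was called higher by edgeR (log2 fold change 0.45, adjusted p = 0.0229). In contrast nid1.S fell from 2.2 and 1.28 to 0.466 and 0.219 CPM (log2 fold change -2.38 ± 0.45 SE, adjusted p = 0.000663), and nid1.L, at 0.407 and 0.256 and then 0.0292 and 0.11 CPM, was not called without the block and was called with it (adjusted p = 0.208 without and 0.0196 with it).

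**Figure D2:**
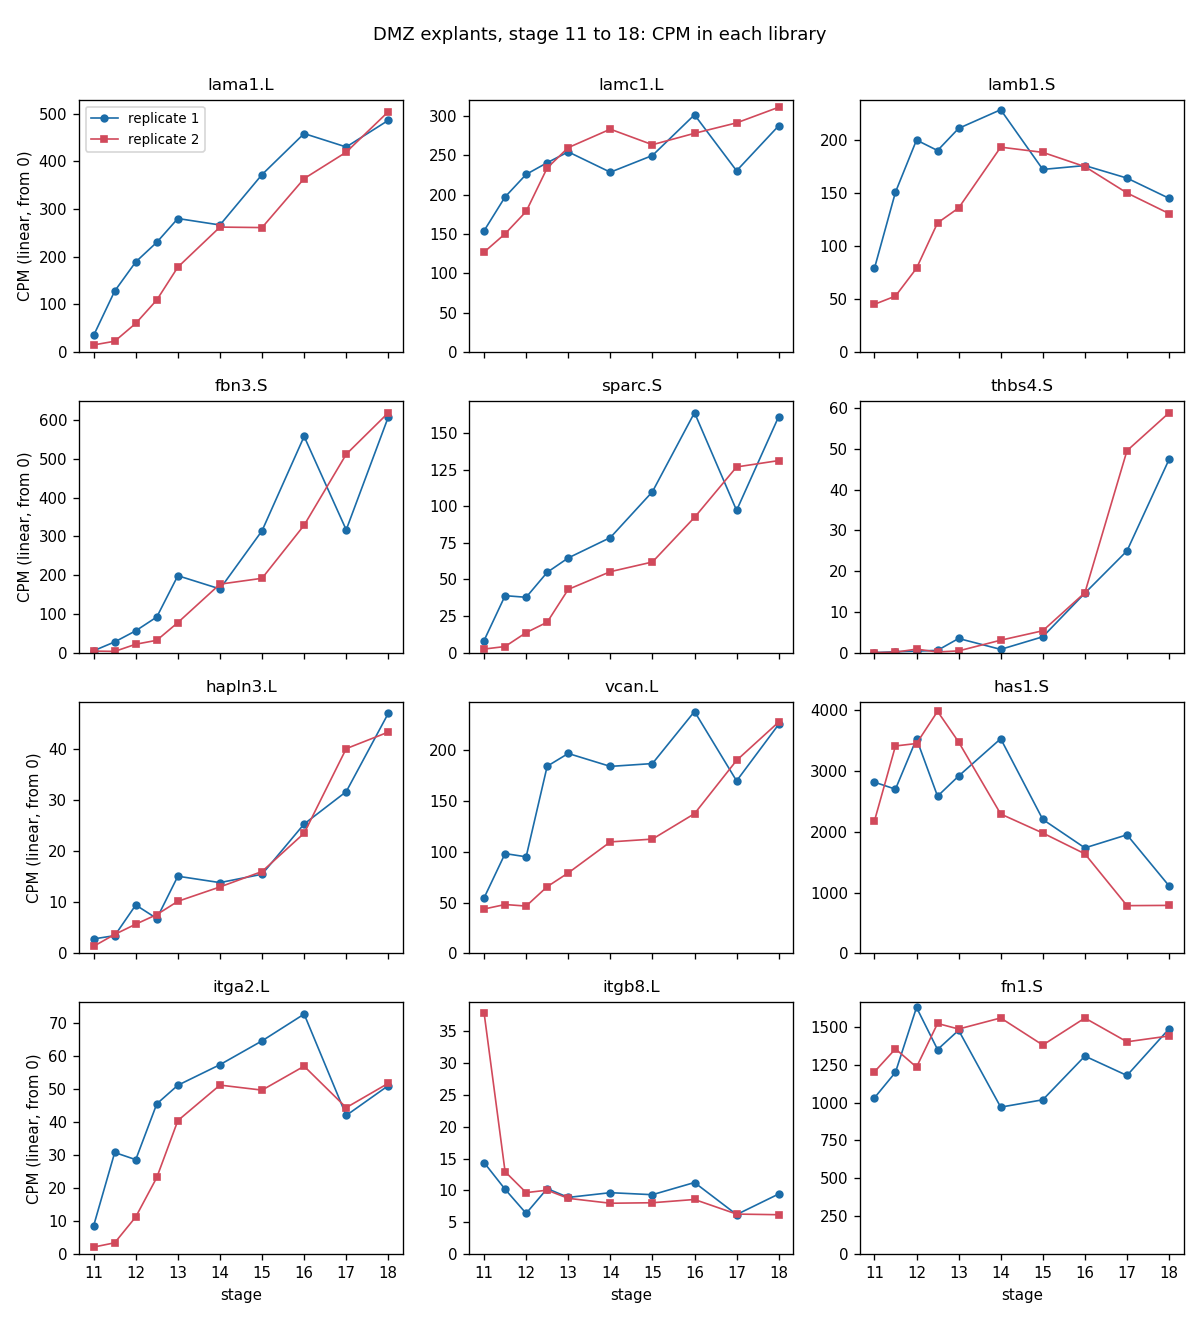
CPM (linear axes from 0) of 12 gene models in DMZ explants against stage, with replicate 1 as circles and replicate 2 as squares. The lama1.L, fbn3.S, sparc.S and hapln3.L lines climb to stage 18, thbs4.S stays near 0 until stage 14, lamb1.S and has1.S are lower at stage 18 than at stage 14, itgb8.L starts high in replicate 2, and fn1.S shows no trend beyond its replicate spread.

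Both copies of fibrillin 3 rose steeply. The model fbn3.S had 4.88 and 3.97 CPM at stage 11, 56.4 and 21.7 at stage 12, 164 and 177 at stage 14 and 608 and 619 at stage 18. Every library from stage 12 on was above both stage 11 libraries (136-fold at stage 18, log2 fold change 7.09 ± 0.94 SE, adjusted p = 4.27e-05). Its homeolog fbn3.L rose from 11.9 and 7.81 to 547 and 539.7 CPM (log2 fold change 5.76 ± 0.73 SE, adjusted p = 2.86e-05). Fibrillin 2 differed between replicates more than between stages at the start: fbn2.L had 2.68 and 23.9 CPM at stage 11 and 0.262 and 0.713 at stage 18. Replicate 2 was above replicate 1 at every DMZ stage and in both other tissues, and the stage 11 libraries are both above those of stage 18. It was not called (log2 fold change -4.72 ± 2.23 SE, adjusted p = 0.105), while it was called with the block (adjusted p = 1.18e-05) and by DESeq2 (adjusted p = 0.0285). The fbn1 models and fbn2.S were at or under 4.28 CPM in every library and were not called.

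Matricellular genes, which modulate adhesion and matrix assembly, held 6 risers among 9 models and no model that fell. Sparc, a collagen-binding glycoprotein, rose from both copies. The S copy sparc.S had 8.24 and 2.43 CPM at stage 11, 38.9 and 4.18 at stage 11.5 and 161 and 131 at stage 18 (log2 fold change 4.68 ± 0.88 SE, adjusted p = 0.000667), and the L copy sparc.L had 0.576 and 0.384 and then 60.2 and 58 (log2 fold change 6.82 ± 0.85 SE, adjusted p = 2.36e-05). For each copy all libraries of stage 18 are above those of stage 11.

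Of the 6 thrombospondin models, 3 rose. The model thbs4.S had no count in either stage 11 library (which allows up to 3 counts over the group), 0.798 and 3.05 CPM at stage 14, 14.6 and 14.7 at stage 16 and 47.4 and 58.8 at stage 18. Against that floor it was at least 662-fold higher at stage 18 (adjusted p = 3.15e-05). The second model, thbs4, had 0.136 and 0.384 CPM at stage 11, 0.12 and 0.385 at stage 14 and 14.9 and 11.5 at stage 18 (log2 fold change 5.96 ± 1.15 SE, adjusted p = 0.000816). Thrombospondin 4 is known from tendon and muscle matrix. By stage 14, thbs4.S was already at least 26-fold above that floor (adjusted p = 0.00615, and 0.0798 without DMZ stage 11 replicate 1), and thbs4 was not called (adjusted p = 0.883). From stage 14 to stage 18 both were called higher (log2 fold change 4.76 ± 0.86 SE, adjusted p = 0.00508 for thbs4.S, and log2 fold change 5.63 ± 1.05 SE, adjusted p = 0.0054 for thbs4). The adjusted p of that span became 0.0542 without DMZ stage 14 replicate 1 for thbs4.S and 0.0646 without DMZ stage 14 replicate 1 for thbs4. For thbs3.L the level went from 0.17 and 0 CPM (5 counts) to 27.8 and 22.6 (log2 fold change 7.59 ± 1.41 SE, adjusted p = 0.000598), and the log2 fold change was 12.57 without DMZ stage 11 replicate 1, the library that holds those counts. The other thrombospondins, thbs1.L and the thbs2 pair, were not called, and thbs1.L had 3.15 and 4.35 CPM at stage 11 and 6.36 and 7.02 at stage 18. Tenascin C, tnc.L, had 1 count at stage 11 and 2.27 and 2.47 CPM at stage 18, a ratio of 88.6-fold, with a counting interval from 15.7 to 3518 (adjusted p = 0.000512).

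Somite and muscle markers moved with these genes: the list (6 symbols found, 11 models, none at 0 at stage 18) summed to 28.8 and 52.1 CPM at stage 11, 160.1 and 376 at stage 14 and 872 and 805 at stage 18. Melusin, itgb1bp2.L, a muscle protein, rose from 1.12 and 3.71 to 26.1 and 19.8 CPM (log2 fold change 3.36 ± 0.70 SE, adjusted p = 0.00135). All 11 muscle models had a higher mean at stage 18. Notochord markers (6 symbols found, 11 models) summed to 1546 and 1692 at stage 11 and 1098 and 1019.9 at stage 18. Of these 11 models 4 had a higher mean at stage 18, among them the collagen genes col2a1.L (0.277 to 229 CPM) and col2a1.S (0.284 to 117 CPM), and 7 had a lower one, among them t.S (374 to 62.7 CPM). Epidermal markers (7 symbols found, 13 models) summed to 1045 and 545 CPM and then 1674 and 1606. The keratin krt12.S made up that difference, with a mean of 118.9 CPM at stage 11 and 997 at stage 18, while the other 12 summed to means of 676 and 643 CPM. Neural plate markers (7 symbols found, 14 models) summed to 1420 and 2278 CPM at stage 11 and 1615 and 1973 at stage 18. Of these 14 models 5 had a higher mean at stage 18, among them ncam1.L (21.9 to 193 CPM), and 9 had a lower one. The part of these cell types in the rise of the matrix genes was not tested.

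Of the 4 hyaluronan-binding models 3 were called higher, and of the 5 hyaluronan synthase models 1 rose and 2 fell. The link protein hapln3.L, which ties proteoglycans to hyaluronan, had 2.85 and 1.41 CPM at stage 11, 13.9 and 13 at stage 14 and 47.1 and 43.4 at stage 18. It was called higher over both spans (log2 fold change 4.32 ± 0.32 SE, adjusted p = 4e-07 for 18 against 11, and log2 fold change 1.75 ± 0.28 SE, adjusted p = 0.00209 for 18 against 14) and was the 1 member of the 6 called at stage 18 against stage 14 that kept its call in every leave-out. Versican, vcan.L, rose from 54.7 and 43.8 to 226 and 228 CPM (log2 fold change 2.20 ± 0.75 SE, adjusted p = 0.0283). Its call was lost on leaving out any library, with an adjusted p of 0.0893 without DMZ stage 11 replicate 1, 0.134 without DMZ stage 11 replicate 2, 0.0696 without DMZ stage 18 replicate 1 and 0.0726 without DMZ stage 18 replicate 2. Brevican, bcan.L, a proteoglycan known from neural tissue, had no count at stage 11 and 5.31 and 4.39 CPM at stage 18, at least 60.1-fold higher when the group is set to 3 counts (adjusted p = 0.00232). The link protein hapln1.L, at 2.61 and 0.256 and then 0.612 and 0.11 CPM, was not called without the block and was called lower with it (adjusted p = 0.177 without and 0.0107 with it).

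Of the synthases, has1.S had 2815 and 2176 CPM at stage 11, 3529.8 and 2292 at stage 14 and 1111 and 790.0 at stage 18. The stage 18 libraries were below those of every stage from 11 to 16, and has1.S fell 2.63-fold against stage 11 (log2 fold change -1.39 ± 0.33 SE, adjusted p = 0.00337). Against stage 14 it was also called lower (log2 fold change -1.61 ± 0.33 SE, adjusted p = 0.00914), with an adjusted p of 0.0902 without DMZ stage 14 replicate 1 and 0.12 without DMZ stage 18 replicate 2. For has2.L, model gene39058 went from 26.1 and 47.9 to 9.18 and 13.1 CPM (log2 fold change -1.72 ± 0.51 SE, adjusted p = 0.0133), a fall whose adjusted p was 0.122 without DMZ stage 11 replicate 2 and 0.104 without DMZ stage 18 replicate 1. Model gene7237 had 20.5 and 43.5 and then 13.3 and 19.9 CPM and was not called (log2 fold change -0.94 ± 0.72 SE, adjusted p = 0.32). Reads shared by these 2 models cannot be placed with certainty. For has3.L the levels were 1.15 and 1.28 and then 3.32 and 2.69 CPM, a rise (log2 fold change 1.31 ± 0.45 SE, adjusted p = 0.0304) whose adjusted p was 0.147 without DMZ stage 11 replicate 1, 0.0809 without DMZ stage 11 replicate 2, 0.125 without DMZ stage 18 replicate 1 and 0.0555 without DMZ stage 18 replicate 2. Its homeolog has3.S, with 2.27 and 2.94 and then 4.31 and 4.93, was not called (adjusted p = 0.0587), but was called with the block (0.0353), by DESeq2 (0.0368) and with the stricter filter (0.0474, all adjusted p).

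Heparan sulfate proteoglycans were mixed. Syndecan 3 rose from both copies, sdc3.L from 0.475 and 0.384 to 4.4 and 4.77 CPM (log2 fold change 3.36 ± 0.85 SE, adjusted p = 0.00542) and sdc3.S from 0.17 and 0.256 to 1.63 and 2.11 (log2 fold change 3.23 ± 0.49 SE, adjusted p = 0.000125). In vertebrates syndecan 3 is known from neural tissue, and the stage 18 libraries of both copies were above all stage 11 libraries. Syndecan 2, sdc2.L, fell from 123 and 112 to 75.2 and 72.6 CPM (log2 fold change -0.67 ± 0.15 SE, adjusted p = 0.00221). The copies sdc2.S (120.4 and 38, then 52.9 and 26.5) and sdc4.S (48.1 and 62.2, then 26.3 and 34.8) were not called (adjusted p = 0.0938 and 0.0578). They were called lower with the block, at adjusted p of 0.0177 and 0.000751. In addition sdc2.S was called without DMZ stage 11 replicate 2 (0.012), and sdc4.S by DESeq2 (0.0368), with upper quartile scaling (0.0392) and with the stricter filter (0.0495, all adjusted p). Of the glypicans, gpc5.L fell from 5.93 and 8.32 to 1.08 and 2.22 CPM (log2 fold change -2.09 ± 0.43 SE, adjusted p = 0.00132) and gpc6.S from 1.39 and 0.768 to 0.233 and 0.411 (log2 fold change -1.79 ± 0.40 SE, adjusted p = 0.0023), the second with an adjusted p of 0.171 without DMZ stage 11 replicate 1. Glypican 4, gpc4.L, a Wnt co-receptor that takes part in convergent extension in *Xenopus*, had 439.8 and 246 CPM at stage 11 and 354 and 383 at stage 18, overlapping values that were not called (log2 fold change 0.10 ± 0.26 SE, adjusted p = 0.785).

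Among integrins, 3 alpha subunits rose. The collagen receptor subunit itga2.L had 8.65 and 2.18 CPM at stage 11, 45.5 and 23.2 at stage 12.5, 72.7 and 56.9 at stage 16 and 51 and 51.7 at stage 18 (log2 fold change 3.15 ± 0.77 SE, adjusted p = 0.00429). The laminin receptor subunit itga7.L, known from skeletal muscle, had 2 counts at stage 11, 0.0612 and 0 CPM at stage 15, 1.27 and 2.01 at stage 17 and 7.29 and 2.85 at stage 18, a ratio of 93.3-fold, with a counting interval from 25.6 to 773 (adjusted p = 0.000844). Its fitted log2 fold change was 6.52, and 10.26 without DMZ stage 11 replicate 1, which holds those counts. At stage 14, itga7.L had 1 count, and its call at stage 18 against stage 14 had an adjusted p of 0.0033, or 0.0565 without DMZ stage 14 replicate 2. The leukocyte subunit itgax.L rose from 0.407 and 0.384 to 2.68 and 2.44 CPM (log2 fold change 2.67 ± 0.30 SE, adjusted p = 9.31e-06). Blood and macrophage markers (3 symbols found of 6, 5 models) summed to 3.73 and 2.43 CPM at stage 11 and 6.79 and 8.39 at stage 18. In that list spib.L had means of 0.136 CPM at stage 11 and 3.51 at stage 18. The other 4 models summed to means of 2.94 and 4.08 CPM, with 3 higher and 1 lower at stage 18. The part of these cell types in the rise of itgax.L was not tested.

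Among the other subunits of laminin receptors, itgb4.S was called higher. The alpha 6 subunit itga6.L had 213 and 79.9 CPM at stage 11 and 168 and 169 at stage 18, with stage 18 inside the range of stage 11 (log2 fold change 0.20 ± 0.50 SE, adjusted p = 0.78). The alpha 3 subunit itga3.L had 49.5 and 14.5 and then 142 and 109 CPM, without overlap, and was not called (adjusted p = 0.0689). It was called with the block (0.000328), by DESeq2 (0.0252), with L and S summed (0.0395) and without DMZ stage 11 replicate 1 (0.0433, all adjusted p). Its homeolog itga3.S had 22.9 and 20.5 and then 18 and 17 CPM and was not called (log2 fold change -0.31 ± 0.23 SE, adjusted p = 0.29). The beta 4 subunit itgb4.S rose from 0.543 and 0 to 1.37 and 4.55 CPM (log2 fold change 3.05 ± 0.87 SE, adjusted p = 0.011), with an adjusted p of 0.0624 without DMZ stage 11 replicate 2 and 0.134 without DMZ stage 18 replicate 2. Replicate 2 of stage 18 holds most of that rise, and the log2 fold change was 1.95 without it and 9.49 without DMZ stage 11 replicate 1.

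The other beta subunits that changed fell. The TGF-beta-activating subunit itgb8.L had 14.4 and 37.9 CPM at stage 11, 10.2 and 12.9 at stage 11.5 and 9.45 and 6.2 at stage 18 (log2 fold change -1.73 ± 0.37 SE, adjusted p = 0.00164). All DMZ libraries after stage 11 were below both stage 11 libraries, but replicate 2 of stage 11 stood well above replicate 1, and without it the log2 fold change was -0.88 and the adjusted p 0.00164 became 0.06. The epithelial subunit itgb6.L went from 1.97 and 0.768 to 0.525 and 0.329 CPM (log2 fold change -1.75 ± 0.63 SE, adjusted p = 0.0352), and its adjusted p was 0.468 without DMZ stage 11 replicate 1, 0.0709 without DMZ stage 18 replicate 1 and 0.191 without DMZ stage 18 replicate 2. Without DMZ stage 11 replicate 1 its log2 fold change was -0.84. The remaining integrins, itga1.S, both itga2b models, itga4.S, itga7.S, itga8.S, itga11.L, itgae.L, itgb2.L, itgb3.L, itgb4.L, itgb5.L and itgb7.L, were not called. For itgb4.L the log2 fold change was 0.86, and 1.81 without DMZ stage 11 replicate 1. With L and S summed, itgb4 was called higher by edgeR (log2 fold change 1.79, adjusted p = 0.0121).

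**Figure D3:**
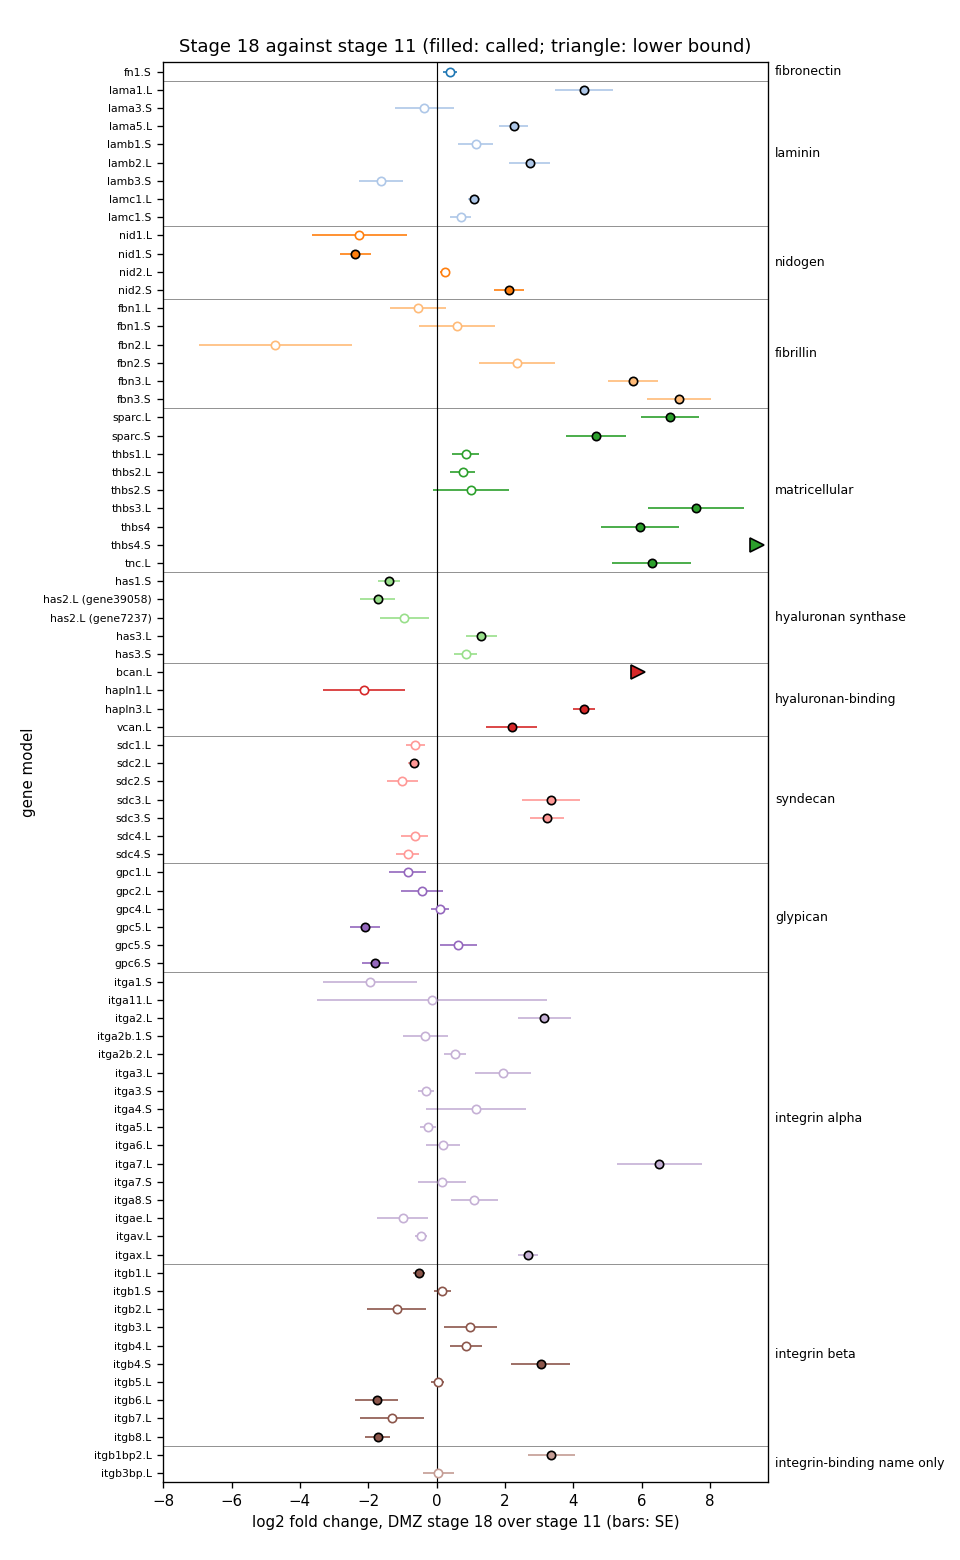
Log2 fold change of DMZ stage 18 over stage 11 (bars, SE) for 78 of the 79 models by class, with called models filled and outlined in black. Triangles mark thbs4.S and bcan.L, whose stage 11 libraries hold no count, at a lower bound set by 3 counts over the group. The models thbs4.S, thbs3.L, fbn3.S and sparc.L lie furthest to the right. The called glypicans gpc5.L and gpc6.S and the integrin beta models itgb1.L, itgb6.L and itgb8.L lie left of 0, while gpc4.L and itgb4.S lie right of it.

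Part of these changes had come by stage 14. Between stages 11 and 14, 17 members rose and 3 fell (21.5% and 3.80%, background 12.5% higher and 13.0% lower). In either direction 25.3% of the members were called, with a background of 25.5%. The median log2 fold change was 0.32 over members and 0.00 over all tested models. The 17 were 5 matricellular models, 4 laminins, 2 fibrillins, 2 integrin alpha subunits, 2 syndecans, has3.S and hapln3.L. The 3 that fell were itgb6.L, itgb8.L and nid1.S. Of these 20 calls, 7 stayed in every leave-out, and without DMZ stage 11 replicate 2, the shallowest library, 9 models were called higher. The models called lower numbered 0 without DMZ stage 14 replicate 2 and 1 without replicate 1 of stage 11 or of stage 14. The number of calls over all tested models also fell in each leave-out. With the block the number called lower was 9 (background 19.2%).

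Fewer calls were made between stages 14 and 18, over the members as over all tested models. Of the members 5 rose and 1 fell (6.33% and 1.27%, background 3.94% and 3.67%). In either direction 7.59% of the members were called, with a background of 7.62%. The risers were thbs4.S, thbs4, itga7.L, lamb2.L and hapln3.L, and has1.S fell. Leaving out either stage 14 library left 3 risers, leaving out DMZ stage 18 replicate 2 left none lower, and the block gave 12 higher and 4 lower (background 8.89% and 8.34%). For stage 18 against stage 14, each leave-out also gave fewer calls over all tested models. A joint F test for any difference from stage 11 over the 10 stages called 28 of the 79 models (35.4%, background 30.0%). As 33 were called at stage 18 against stage 11 alone, the 28 are not all the members that changed. With the block the joint test called 40 members (14296 of 31349 models). DESeq2, with a likelihood ratio test on the DMZ libraries, called 37 (13024 of 31348 models).

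Among members that rose from stage 11 to 18, the level at stage 14 as a share of the stage 18 mean ranged widely. At stage 14, lamc1.L stood at 85.5% of its stage 18 mean, itga2.L at 106%, lama5.L at 70.3% and lama1.L at 53.3%. In contrast fbn3.S stood at 27.8%, sparc.L at 28.2%, thbs4.S at 3.62%, thbs4 at 1.91% and itga7.L at 0.393%. Of the 24 risers, 9 had at least 50% of their stage 18 mean by stage 14, 3 had under 10%, and 21 had their highest mean at stage 18. The risers were selected as higher at stage 18 than at stage 11, which in itself favours a peak at stage 18. These shares were not computed over all models that rose, so they describe the members only. Differences in timing between members were not tested.

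The replicates did not run in step at several stages. Of the 24 risers, replicate 1 was above replicate 2 in 20 at stage 12.5, 19 at stage 13 and 22 at stage 16, and below it in 19 at stage 17. The median log2 ratio of replicate 1 to replicate 2 over the 24 was 0.52 at stage 12.5, 0.56 at stage 13, 0.34 at stage 16 and -0.34 at stage 17. At stage 11.5, where that median was 0.25, single models lay far apart: lama1.L had 128 and 22.2 CPM, fbn3.S 27.7 and 3.21 and itga2.L 30.8 and 3.47 in replicates 1 and 2. The models share the same libraries, so these counts are not independent. The same counts were not made over all tested models, so the gaps cannot be called particular to the members. The cause of these gaps was not tested.

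Among homeolog pairs the share of counts from the L copy changed in 9 of 17 member pairs between stages 11 and 18 (52.9%, background 37.2% of 5024 pairs, limma on log2 ratios, adjusted p under 0.05). The division of reads between near-identical copies is an estimate, so these shares depend on it. The L share of itgb1 was 54.3% and 57% at stage 11 and 44.7% and 42.8% at stage 18 (log2 ratio change -0.69 ± 0.15 SE, limma adjusted p = 0.00224). It was 66.4% and 68.7% in the cap and 63.8% and 70.7% in the VMZ at stage 11, so the DMZ at stage 11 lies between those tissues and the later DMZ.

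The L share of gpc5 was 91.1% and 89% at stage 11 and 52.1% and 62.3% at stage 18 (log2 ratio change -2.72 ± 0.49 SE, limma adjusted p = 0.000697), and gpc5.S itself was not called. For itga7 the share was 18.2% and 0% at stage 11, on few counts, and 92.6% and 91.2% at stage 18 (log2 ratio change 6.01 ± 1.38 SE, limma adjusted p = 0.00353), while itga7.S itself was not called. These 3 pairs kept their calls in every leave-out. The L share of nid2 was 97.4% and 93.6% and then 85.4% and 86.4% (log2 ratio change -1.93 ± 0.47 SE, limma adjusted p = 0.00487), with an adjusted p of 0.0678 without DMZ stage 11 replicate 1.

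The other 5 called pairs each lost the call on leaving out 1 library or more. The L share of fbn3 was 71% and 66.3% at stage 11 and 47.3% and 46.6% at stage 18 (log2 ratio change -1.30 ± 0.38 SE, limma adjusted p = 0.0153), and its adjusted p was 0.0816 without DMZ stage 11 replicate 1, 0.0608 without DMZ stage 18 replicate 1 and 0.0715 without DMZ stage 18 replicate 2. For sparc the share was 6.54% and 13.6% and then 27.2% and 30.7% (log2 ratio change 1.84 ± 0.55 SE, limma adjusted p = 0.0165), with 0.164, 0.0527 and 0.0878 without the same 3 libraries. For itga3 it was 68.4% and 41.4% and then 88.8% and 86.5% (log2 ratio change 2.52 ± 0.92 SE, limma adjusted p = 0.0436), with 0.278 without DMZ stage 11 replicate 2, 0.155 without DMZ stage 18 replicate 1 and 0.112 without DMZ stage 18 replicate 2. For fbn2 and itgb4 the L share was lower at stage 18 (log2 ratio change -5.97 ± 1.87 SE, limma adjusted p = 0.0207 for fbn2, and log2 ratio change -2.71 ± 0.83 SE, limma adjusted p = 0.019 for itgb4). The S copy of fbn2 had 0.0678 and 0.128 CPM at stage 11 and 0.321 and 0.576 at stage 18. For itgb4.L the levels were 1.66 and 0.64 and then 1.75 and 2.74 CPM. Their adjusted p without DMZ stage 11 replicate 2 was 0.131 for fbn2 and 0.189 for itgb4, and without DMZ stage 18 replicate 2 it was 0.07 and 0.143. Without DMZ stage 18 replicate 1 it was 0.0929 for fbn2. The number of called pairs was 5 without DMZ stage 18 replicate 1 and 4 without DMZ stage 18 replicate 2.

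**Figure D4:**
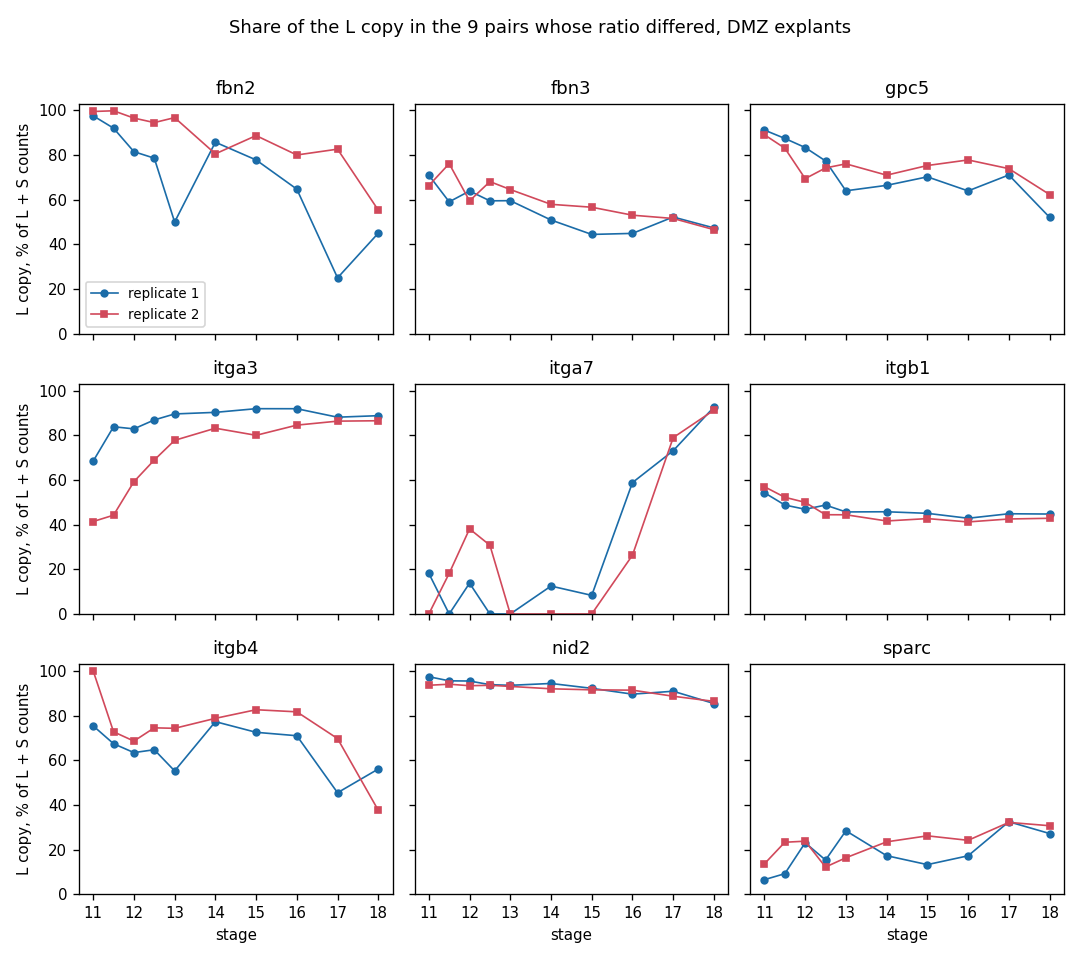
Percent of the L plus S counts that came from the L copy, against stage, in the 2 replicates of the DMZ for the 9 pairs with a called ratio change. The itgb1 lines fall early and then stay flat in both replicates, gpc5 and nid2 fall, itga7 rises after stage 15, and fbn2 and itga3 show wide gaps between replicates.

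At stage 11 the dorsal explants differed from the ventral ones in 5 members, all higher in the DMZ (background 2.24% higher, 0.909% lower and 3.15% in either direction). Integrin beta 8, itgb8.L, had 14.4 and 37.9 CPM in dorsal explants, 4.24 and 3.78 in ventral ones and 7.54 and 11.1 in the cap. Both DMZ libraries were above all others, 6.46-fold over the VMZ (log2 fold change 2.69 ± 0.38 SE, adjusted p = 0.00108), and this was the 1 call of the 5 that stayed in every leave-out. Integrin alpha 6, itga6.L, had 213 and 79.9 CPM in dorsal and 37.7 and 22 in ventral explants (log2 fold change 2.30 ± 0.52 SE, adjusted p = 0.026). Integrin alpha 2, itga2.L, had 8.65 and 2.18 and 0.492 and 0.518 (log2 fold change 3.50 ± 0.86 SE, adjusted p = 0.039). Both DMZ values exceed both VMZ values for each subunit. Glypican 4, gpc4.L, had 439.8 and 246 CPM in dorsal and 179 and 153 in ventral explants (log2 fold change 1.05 ± 0.26 SE, adjusted p = 0.0417), and nidogen 2, nid2.L, 325 and 269.7 and 203 and 178 (log2 fold change 0.64 ± 0.15 SE, adjusted p = 0.0289). The calls were lost at an adjusted p of 0.296 without VMZ stage 11 replicate 2 and 0.275 without DMZ stage 11 replicate 1 for itga6.L, 0.107 without VMZ stage 11 replicate 1, 0.291 without VMZ stage 11 replicate 2 and 0.491 without DMZ stage 11 replicate 1 for itga2.L, 0.0665 without VMZ stage 11 replicate 1, 0.338 without VMZ stage 11 replicate 2 and 0.409 without DMZ stage 11 replicate 1 for gpc4.L and 0.327 without VMZ stage 11 replicate 2 and 0.228 without DMZ stage 11 replicate 1 for nid2.L. Without DMZ stage 11 replicate 1 the log2 fold change was 1.42 for itga6.L, 2.10 for itga2.L and 0.57 for gpc4.L.

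No member was called lower in the DMZ than in the VMZ, although DESeq2 called 2 (background 3.36%). With the block 14 members were higher and 2 lower (background 5.22% and 3.44%), the 2 being sdc1.L, at 57.7 and 34.8 CPM in dorsal and 109 and 84.7 in ventral explants, and hapln3.L, at 2.85 and 1.41 and 4.4 and 4.41, both chosen after their values were seen. The 9 gained on the higher side include lama1.L, at 34.6 and 14.5 CPM in dorsal and 5.63 and 1.04 in ventral explants (adjusted p = 0.0645 without and 0.0173 with the block), vcan.L, at 54.7 and 43.8 and 22.5 and 4.3 (0.195 and 0.0183), and lamb1.S, at 78.6 and 44.8 and 37.7 and 15 (0.217 and 0.041). DESeq2 also called lama1.L higher in the DMZ (log2 fold change 2.87, adjusted p = 0.00311). It called sparc.S higher as well (log2 fold change 2.28, adjusted p = 0.0373), which the main edgeR test did not. With upper quartile scaling the share of higher calls among all called models was 82.2%, against 71.1% with TMM.

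Against the animal cap, 9 members were higher in the DMZ and 2 lower (background 2.49% and 0.718%, 3.21% in either direction). The higher members were 3 laminin chains, 2 integrin beta subunits, both has2.L models, itga2.L and nid2.L. Laminin alpha 1, lama1.L, had 34.6 and 14.5 CPM in the DMZ and 0.617 and 1.03 in the cap (log2 fold change 4.90 ± 0.93 SE, adjusted p = 0.0066). Laminin beta 1, lamb1.S, had 78.6 and 44.8 and 10.3 and 6.18 (log2 fold change 2.91 ± 0.55 SE, adjusted p = 0.00607), and laminin beta 3, lamb3.S, 4.04 and 1.92 and 0.399 and 0.29 (log2 fold change 3.15 ± 0.71 SE, adjusted p = 0.0207). For these chains the DMZ libraries were all above the cap libraries. Hyaluronan synthase 2 followed the same order: gene39058 had 26.1 and 47.9 CPM in dorsal explants, 17.1 and 17.8 in ventral ones and 4.68 and 5.18 in the cap (log2 fold change 2.90 ± 0.53 SE, adjusted p = 0.00505 for DMZ over cap), and gene7237 had 20.5 and 43.5, 9.84 and 8.69 and 0.653 and 4.41 (log2 fold change 3.64 ± 0.80 SE, adjusted p = 0.0178).

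Integrin beta 1 differed from the cap in its S copy, with 262 and 206 CPM in the DMZ and 135 and 94.4 in the cap for itgb1.S (log2 fold change 1.03 ± 0.25 SE, adjusted p = 0.0303), and nid2.L had 325 and 269.7 and 182 and 178 (log2 fold change 0.73 ± 0.15 SE, adjusted p = 0.0118). Integrin beta 8, itgb8.L, was also higher (log2 fold change 1.47 ± 0.37 SE, adjusted p = 0.0362), as was itga2.L, at 8.65 and 2.18 against 0.544 and 0.161 CPM (log2 fold change 4.05 ± 0.93 SE, adjusted p = 0.0228). Lower in the DMZ were hapln3.L, at 2.85 and 1.41 against 6.53 and 5.86 CPM (log2 fold change -1.46 ± 0.29 SE, adjusted p = 0.0101), and itgax.L, at 0.407 and 0.384 against 0.87 and 1.06 (log2 fold change -1.27 ± 0.30 SE, adjusted p = 0.0365). The synthase has1.S had 2815 and 2176 CPM in dorsal explants, 4357 and 3680.4 in ventral ones and 5593 and 4974 in the cap. All libraries of each tissue were separate from those of the next, and has1.S was not called between DMZ and cap (log2 fold change -1.08 ± 0.33 SE, adjusted p = 0.0987), although DESeq2 called it lower (adjusted p = 0.0337). Two-sided calls of DESeq2 alone were also made for sparc.S (log2 fold change 2.80, adjusted p = 0.00847) and vcan.L (log2 fold change 2.58, adjusted p = 0.00653). Both were higher in the DMZ than in the cap, and the main edgeR test called neither.

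None of the 11 calls of the main edgeR test between DMZ and cap stayed in every leave-out. The number higher was 2 without Cap stage 11 replicate 1, 1 without Cap stage 11 replicate 2 and 3 without DMZ stage 11 replicate 1, and the number lower was 0 without Cap stage 11 replicate 1 or DMZ stage 11 replicate 2 and 1 without either other library. For lama1.L the adjusted p was 0.0987 without Cap stage 11 replicate 1, 0.0681 without Cap stage 11 replicate 2 and 0.0539 without DMZ stage 11 replicate 1. For lamb1.S it was 0.0975 without Cap stage 11 replicate 2 and 0.0551 without DMZ stage 11 replicate 1, and for lamb3.S 0.121 without Cap stage 11 replicate 1, 0.184 without Cap stage 11 replicate 2 and 0.225 without DMZ stage 11 replicate 1. For has2.L gene39058 it was 0.0749 without Cap stage 11 replicate 1 and 0.0571 without Cap stage 11 replicate 2, and for gene7237 0.143 without Cap stage 11 replicate 1 and 0.106 without DMZ stage 11 replicate 2. For itgb8.L it was 0.266 without Cap stage 11 replicate 1, 0.0819 without Cap stage 11 replicate 2 and 0.499 without DMZ stage 11 replicate 2, for itgb1.S 0.289 without Cap stage 11 replicate 2 and 0.218 without DMZ stage 11 replicate 1, for nid2.L 0.0798 without Cap stage 11 replicate 1, 0.0919 without Cap stage 11 replicate 2 and 0.129 without DMZ stage 11 replicate 1 and for itga2.L 0.0893 without Cap stage 11 replicate 1, 0.233 without Cap stage 11 replicate 2 and 0.424 without DMZ stage 11 replicate 1. For hapln3.L it was 0.0692 without Cap stage 11 replicate 1 and 0.0734 without DMZ stage 11 replicate 2, and for itgax.L 0.0627 without Cap stage 11 replicate 1, 0.284 without Cap stage 11 replicate 2, 0.528 without DMZ stage 11 replicate 1 and 0.102 without DMZ stage 11 replicate 2. The log2 fold change moved to 5.60 for gene7237 without Cap stage 11 replicate 2, to 2.64 for itga2.L without DMZ stage 11 replicate 1 and to 0.60 for itgb8.L without DMZ stage 11 replicate 2. Each of these leave-outs also gave fewer calls over all tested models. Without either Cap library or DMZ stage 11 replicate 1, the members lost a larger share of their higher calls than all tested models did. That difference was not tested.

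Between VMZ and cap no member was called by edgeR (background 0.721% higher, 0.313% lower and 1.03% in either direction). DESeq2 called 2 higher and 1 lower (background 2% and 1.33%), and the block gave 3 higher and 1 lower (background 1.61% and 1.16%). The 3 higher with the block were has2.L gene39058 (0.000693), has2.L gene7237 (0.0269) and lamb1.S, at 37.7 and 15 CPM in the VMZ and 10.3 and 6.18 in the cap (0.0323, all adjusted p), and itga6.L was lower (0.0443). With upper quartile scaling the share of higher calls among all called models was 54.9%, against 69.8% with TMM.

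Other cell types moved with these differences between tissues. Epidermal markers summed to 3886 and 2956 CPM in the cap, 1957 and 1867 in the VMZ and 1045 and 545 in the DMZ, with no model at 0. Endoderm markers (7 symbols found, 12 models, none at 0) summed to 237 and 131 CPM in the cap, 470.3 and 147 in the VMZ and 893 and 874 in the DMZ. In that list a2m.S had means of 159 CPM in the cap, 142 in the VMZ and 843 in the DMZ, and the other 11 models were all lower in the DMZ than in the VMZ, with summed means of 40.9 and 166 CPM. Neural plate markers (7 symbols found, 14 models, none at 0) summed to 424 and 470 CPM in the cap, 808 and 796 in the VMZ and 1420 and 2278 in the DMZ. All 14 had a higher mean in the DMZ than in the VMZ, and against the cap 12 were higher and 2 lower. The part of these cell types in the differences of the members was not tested.

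**Figure D5:**
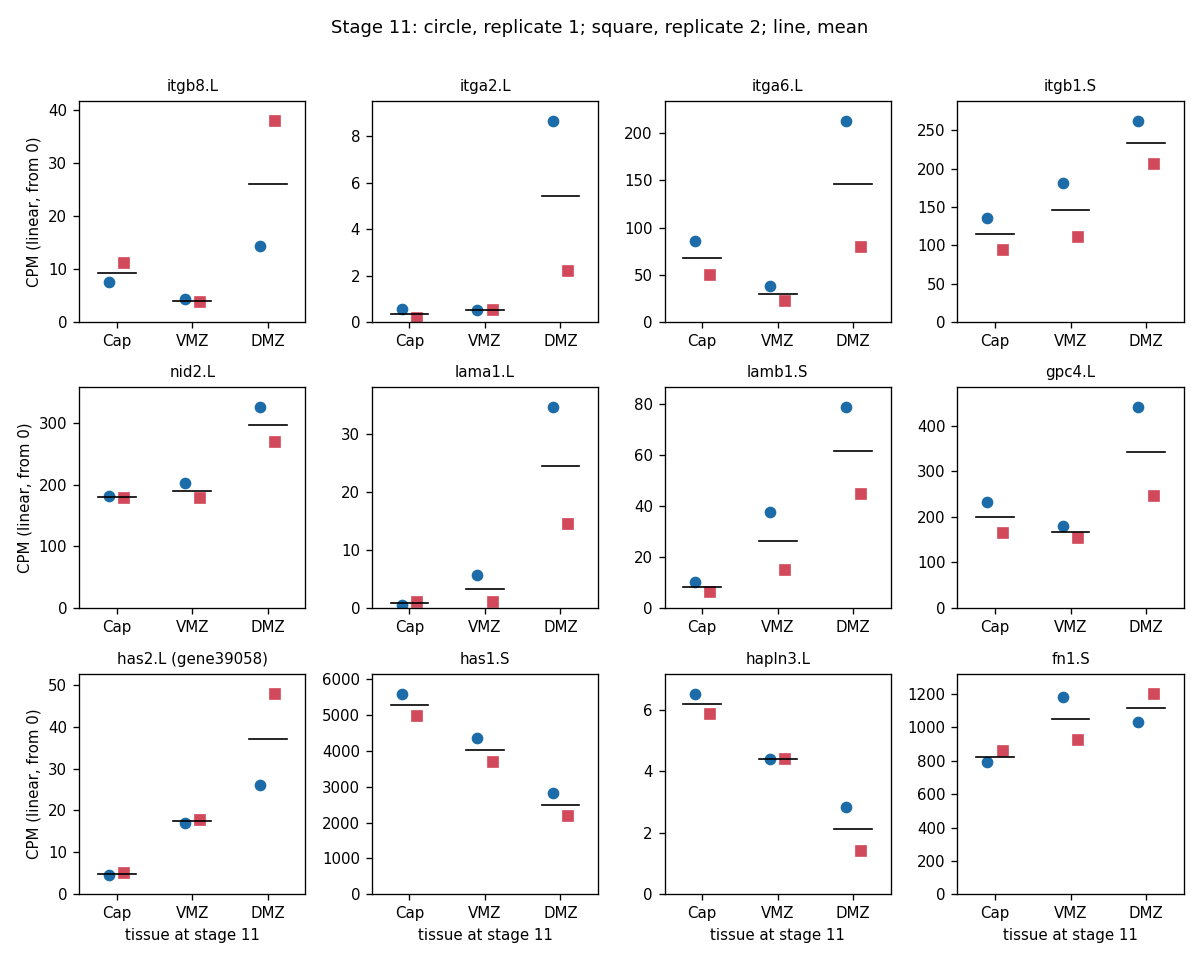
CPM (linear axes from 0) of 12 gene models in animal cap, VMZ and DMZ at stage 11, with replicate 1 as circles, replicate 2 as squares and lines at the means. The itgb8.L, itga2.L, lama1.L and lamb1.S points are highest in the DMZ, has1.S and hapln3.L step down from cap to VMZ to DMZ, and the itgb8.L, itga6.L and gpc4.L replicates of the DMZ lie far apart.

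Genes that act with these molecules were taken from lists of other symbols, which were chosen with earlier results of these data known. The background for the counts of stage 18 against stage 11 is the 20.9% higher and 19.6% lower given above. Of 48 tested models of other matrix glycoproteins and proteoglycans, 29 were higher at stage 18 than at stage 11 and 2 lower (60.4% and 4.17%), with a median log2 fold change of 2.30. They included the hyaluronan receptor cd44.S (0.017 CPM at stage 11 and 14.9 at stage 18, adjusted p = 1.59e-06), matrilin 4, matn4.L (0.715 to 38.2 CPM, log2 fold change 5.95 ± 0.70 SE, adjusted p = 1.56e-05), and the lysyl oxidase loxl3.S, which crosslinks collagen (0.919 to 20.1 CPM, log2 fold change 4.49 ± 0.54 SE, adjusted p = 1.93e-05). The stage 11 level of cd44.S rests on too few counts for a fold change. Spock3.S (8.88 to 1.62 CPM, log2 fold change -2.46 ± 0.57 SE, adjusted p = 0.00314) and ecm1.L (1.3 to 0.128 CPM, log2 fold change -3.38 ± 1.13 SE, adjusted p = 0.0258) fell.

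Of 49 gene models for proteins of the cell side of adhesion, 15 rose and 9 fell (30.6% and 18.4%), with a median of 0.18. Dystroglycan, dag1.S, another laminin receptor, rose (32.4 to 284 CPM, log2 fold change 3.13 ± 0.45 SE, adjusted p = 8.5e-05), as did the kinase fyn.L (0.501 to 8.78 CPM, log2 fold change 3.94 ± 0.50 SE, adjusted p = 2.96e-05) and the collagen receptor ddr1.S (2.32 to 10.3 CPM, log2 fold change 2.11 ± 0.30 SE, adjusted p = 6.55e-05). Talin 2, tln2.L, which ties integrin tails to actin, fell (53.2 to 11.5 CPM, log2 fold change -2.20 ± 0.32 SE, adjusted p = 8.74e-05). Another focal adhesion protein, lims1.L, also fell (65.1 to 23.4 CPM, log2 fold change -1.48 ± 0.25 SE, adjusted p = 0.000255).

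Of 43 gene models for matrix proteases and their inhibitors, 6 rose and 14 fell (14.0% and 32.6%), with a median of -0.46. The versican-cleaving protease adamts1 fell from both copies, adamts1.S (237 to 6.45 CPM, log2 fold change -5.20 ± 0.55 SE, adjusted p = 6.18e-06) and adamts1.L (135 to 9.57 CPM, log2 fold change -3.82 ± 0.58 SE, adjusted p = 0.000125). The tolloid-like proteases differed, with tll1.S higher (10.1 to 37.7 CPM, log2 fold change 1.90 ± 0.43 SE, adjusted p = 0.00238) and tll2.L lower (13.8 to 3.86 CPM, log2 fold change -1.83 ± 0.30 SE, adjusted p = 0.000201).

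In the authors' second deposited table, which also holds genes without a cluster, 41 of the 79 members carry a cluster number. Cluster 4 holds 21 of them, among them lama1.L, lama5.L, lamc1.L, both fbn3 and both sparc copies, itga2.L, itga3.L and vcan.L. Cluster 5 holds 8, among them thbs4.S, thbs4, itga7.L, lamb2.L, bcan.L, tnc.L and itgb4.S. Cluster 2 holds 8, among them has1.S, gpc5.L, itgb6.L, nid1.S, lamb3.S and sdc2.L, while clusters 1 and 3 hold 2 each. The remaining 38 members, fn1.S and itga5.L among them, have none there. The share of all models with a cluster number was not computed, so these counts describe the members only. The clusters belong to the same series and are no independent check of the calls above.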

How the data were processed

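The authors' deposited count table gives a whole-number count for each gene model in each of 24 libraries. The submitters' processing notes list Trim Galore, kallisto and DESeq2. Versions, order of use, strand handling and genome build were not given in the sources used here. With kallisto, reads shared by several transcripts are split by estimation, which affects homeologs and paralogs. A second deposited table holds gene names, with the authors' cluster number, their adjusted p-value and a regularised log2 value for each group. Of these, the gene names, by which the members were chosen, and the cluster number were used. Gene names are those of the authors' tables, and 75 of the 79 are symbols in a RefSeq annotation of the species. No sequence or coordinate was used.

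The count test was edgeR 4.0.16 under R 4.3.3, with filterByExpr (minimum count 10, minimum total count 15), TMM scaling, and a robust quasi-likelihood fit of 12 groups to all 24 libraries (12 residual degrees of freedom, biological coefficient of variation 0.33). The spread is therefore shared with the other groups. P-values are two-sided and adjusted by the Benjamini-Hochberg method over 31349 models, or over 5024 pairs for L to S ratios, which were tested with limma 3.58.1 on log2 of the counts plus 0.5. SE is the log2 fold change divided by the root of F. Intervals and floors cover counting error only (95% for ratios on few counts). The scripts were tested on simulated data. Other settings were DESeq2 1.42.0, RLE and upper quartile scaling, no filter, a stricter filter (1 CPM in 4 libraries), a replicate block, L and S summed, 5 in place of 0.5 for ratios, and leaving out each library. Same-numbered libraries deviated together in all 66 pairs of groups (correlation 0.24 to 0.67), so the numbers pair the samples by this check and not by the labels. The block result is printed where it moves a count by over 1.5 times, and for named calls mostly in the comparison discussed. In edgeR the block also called other named models higher, by adjusted p. At stage 14 against 11 they were itga3.L (0.000956), vcan.L (0.0214) and nid2.S (0.0262). At stage 18 against 14 they were thbs3.L (0.0324) and sparc.L (0.0246). In DMZ against VMZ they were itgb1.S (0.0492), has2.L gene39058 (0.0223) and gene7237 (0.0393), and in DMZ against cap vcan.L (0.00461).

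The members, the related lists and the rule for named genes were chosen with earlier results of these data known. The rule takes the called members of largest rise and fall in each comparison and a set of well-known members whatever their result. Where a model outside it is named, its value had been seen. Of the members, 1 that is counted in the totals is not reported by name here or drawn in the plots.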

Additional observations from a re-analysis of the deposited data

How the results depend on the processing

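In stage 18 against stage 11, the 24 members called higher ranged from 21 to 25 and the 9 called lower from 6 to 10 on leaving out 1 library. The 28 members called by the joint F test over the 10 stages ranged from 24 to 31 in the leave-outs. In the other comparisons the leave-out range was 9 to 14 higher and 0 to 2 lower for stage 14 against 11, 3 to 5 higher and 0 to 1 lower for stage 18 against 14, 1 to 7 higher and 0 to 1 lower for DMZ against VMZ, 1 to 8 higher and 0 to 1 lower for DMZ against cap, and 4 to 7 for the L to S pairs. The replicate block gave 16 lower for stage 18 against 11, 9 lower for 14 against 11, 12 higher and 4 lower for 18 against 14, 14 higher and 2 lower for DMZ against VMZ, and 3 higher and 1 lower for VMZ against cap. DESeq2 gave 8 higher and 2 lower for stage 18 against 14 (background 6.69% and 6.59%). It gave 8 and 2 for DMZ against VMZ (background 5.14% and 3.36%), and 2 and 1 for VMZ against cap (background 2% and 1.33%). RLE, upper quartile scaling and the stricter filter each gave 2 lower for stage 18 against 14, and the stricter filter 1 lower for DMZ against VMZ. Over all models, RLE called 1228 of 31349 lower for stage 18 against 14, and upper quartile scaling 1529 of 31349. The stricter filter called 1260 of 24161 lower there and 396 of 24161 for DMZ against VMZ. In the pairwise comparisons, leaving out a library also lowered the number of calls over all tested models, except without VMZ stage 11 replicate 1. The cause of these shifts was not tested.

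A change of sign in a named value occurred only for models not called in stage 18 against 11. With L and S summed, itga3 had 1.45 (adjusted p = 0.0395), itgb1 -0.11 and fbn2 -3.71, which differ in sign from their S copies. For itgb1 the sum lay between the L copy (-0.51) and the S copy (0.17). On leaving out 1 library, gpc4.L ranged from -0.26 (without DMZ stage 11 replicate 2) to 0.58, itga6.L from -0.33 (without the same library) to 1.08, and itga11.L from -3.09 to 3.00 (without the same library), with 0.73 without DMZ stage 18 replicate 1. With 5 in place of 0.5 the L to S change was not called for itgb4 (adjusted p = 0.0744), sparc (0.114) and fbn2 (0.0606). The block removed no call from the members in any comparison. DMZ stage 11 enters 4 of the 6 comparisons, and its replicate 2 is the shallowest library, at 7.38 M counts, so models with a few counts there are the least certain.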
